A study of Mus musculus with 3 samples.

Results

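Broad accessible regions that lie away from gene ends were described in ATAC-seq counts of mouse skin squamous cell carcinoma cells. A region was taken when it lay on chromosomes 1 to 19 of the mm10 (GRCm38) build and was at least 1500 bp wide. Its midpoint also had to lie more than 2 kb from both ends of every protein-coding gene, yet inside a gene body or within 50 kb of one. Of 95840 nuclear regions, 2474 (2.58%) met these conditions, and they were nearest to 2005 genes. They made up 36.8% of the 6726 regions of that width on the same chromosomes. Another 3668 broad regions lay within 2 kb of a gene end and 584 lay more than 50 kb from any gene. Regions under 1500 bp at the same distances from genes numbered 58304.

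The tumours were induced with DMBA, a mutagen, and TPA, a tumour promoter, in mice of mixed background. All 3 groups carried K14Cre, a Cre recombinase expressed from the keratin 14 promoter of basal epidermal cells, and RYFP, a reporter that marks cells in which Cre has acted. The control genotype was K14Cre;RYFP, and its Epcam+ cells gave the library named control Epcam+. The other genotype, K14Cre;Fat1fl/fl,RYFP, deletes the protocadherin gene Fat1 in cells of the keratin 14 lineage, so other cells of the tumour keep the gene. Its Epcam+ and Epcam- cells gave 1 library each, named Fat1 cKO Epcam+ and Fat1 cKO Epcam-, and their titles share the tumour name F3E13-14. The 3 names are shortened to control+, cKO+ and cKO- from here on. Epcam is the epithelial surface protein used for sorting. Each group had 1 library made from 100000 sorted cells, so no comparison has replicates, none was tested, and each difference is between libraries. Each interval is the 95% Clopper-Pearson interval for the ratio of 2 counts. It covers counting error only, and no molecular identifiers are stated, so copies of 1 molecule may be counted several times.

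ATAC-seq uses a transposase that inserts adapters into DNA not covered by nucleosomes, so counts are high where chromatin is open. Open stretches away from promoters are often enhancers, short sequences where transcription factors bind and act on a promoter that can be far away. Wide open stretches can hold several such sites side by side, and they can also hold an internal promoter from which a shorter transcript of the gene, or a non-coding RNA, starts. The nearest gene is a label of position and need not be the gene an enhancer acts on.

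Because the rule measured distance from the outer ends of gene models, some regions could hold a start of transcription inside a gene. RefSeq promoter windows of the GRCm38.p6 assembly, 300 bases long with 250 before and 50 after a start, were placed on the regions. Whole windows lay inside 417 regions (16.9%), 564 windows in all, and in 318 of these regions the start belonged to the nearest protein-coding gene. In the other 99 regions all the starts were non-coding. Among regions with a start of the nearest gene, the windows below show those in which each pair of libraries differed most in each direction and the 2 even regions with the most counts. They were chosen after the values were seen. Sequences are RefSeq's and read 5′ to 3′ on the strand of the transcript. Capitals mark matches on either strand to TGANTCA (AP-1), GGGCGG (SP and KLF factors), CCAAT (NF-Y) and GGAATG (TEAD).
Magi1 (chr6:93912914-93913213, minus strand): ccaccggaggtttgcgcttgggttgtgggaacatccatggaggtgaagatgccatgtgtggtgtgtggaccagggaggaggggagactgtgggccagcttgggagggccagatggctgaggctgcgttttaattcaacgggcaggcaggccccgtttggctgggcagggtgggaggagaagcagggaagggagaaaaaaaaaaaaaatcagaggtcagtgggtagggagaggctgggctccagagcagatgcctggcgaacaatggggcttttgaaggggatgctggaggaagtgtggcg
Fez1 (chr9:36833324-36833623, plus strand): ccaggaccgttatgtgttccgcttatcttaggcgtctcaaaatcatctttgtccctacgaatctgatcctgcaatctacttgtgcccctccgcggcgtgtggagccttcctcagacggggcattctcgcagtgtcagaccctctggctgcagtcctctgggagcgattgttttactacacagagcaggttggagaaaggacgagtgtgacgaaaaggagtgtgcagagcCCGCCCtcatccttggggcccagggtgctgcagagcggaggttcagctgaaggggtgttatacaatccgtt
Prkag2 (chr5:25100593-25100892, minus strand): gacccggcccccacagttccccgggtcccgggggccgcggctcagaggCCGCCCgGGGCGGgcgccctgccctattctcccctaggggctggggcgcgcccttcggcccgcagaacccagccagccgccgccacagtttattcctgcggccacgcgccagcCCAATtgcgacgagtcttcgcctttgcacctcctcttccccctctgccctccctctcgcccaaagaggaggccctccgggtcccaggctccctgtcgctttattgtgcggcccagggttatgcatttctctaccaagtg
Slc25a21 (chr12:57160594-57160893, minus strand): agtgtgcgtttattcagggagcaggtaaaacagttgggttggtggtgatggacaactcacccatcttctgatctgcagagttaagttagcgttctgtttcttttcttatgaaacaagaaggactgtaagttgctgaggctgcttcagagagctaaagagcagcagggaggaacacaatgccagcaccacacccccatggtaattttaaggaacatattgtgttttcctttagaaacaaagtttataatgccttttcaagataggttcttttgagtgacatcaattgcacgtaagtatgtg
Lhx2 (chr2:38351058-38351357, plus strand): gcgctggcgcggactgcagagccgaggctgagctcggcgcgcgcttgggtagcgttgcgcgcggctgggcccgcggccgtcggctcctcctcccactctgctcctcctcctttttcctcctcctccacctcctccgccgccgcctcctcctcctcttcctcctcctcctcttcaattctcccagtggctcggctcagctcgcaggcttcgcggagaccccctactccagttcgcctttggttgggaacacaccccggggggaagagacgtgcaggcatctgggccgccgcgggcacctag
Prdm10 (chr9:31280299-31280598, plus strand): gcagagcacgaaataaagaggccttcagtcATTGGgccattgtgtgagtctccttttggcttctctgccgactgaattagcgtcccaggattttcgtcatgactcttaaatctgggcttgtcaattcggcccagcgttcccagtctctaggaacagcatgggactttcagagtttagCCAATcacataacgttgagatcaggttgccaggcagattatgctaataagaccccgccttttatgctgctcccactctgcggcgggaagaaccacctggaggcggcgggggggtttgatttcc
Midn (chr10:80148022-80148321, plus strand): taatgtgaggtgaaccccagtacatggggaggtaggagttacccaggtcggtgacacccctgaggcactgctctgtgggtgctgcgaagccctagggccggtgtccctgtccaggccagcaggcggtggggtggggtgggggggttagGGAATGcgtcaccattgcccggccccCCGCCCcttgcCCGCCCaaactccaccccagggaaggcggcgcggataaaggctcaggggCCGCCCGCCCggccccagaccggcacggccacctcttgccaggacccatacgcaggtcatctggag

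Triplets of values follow the order control+, cKO+ and cKO- throughout. CPM is the count scaled to the effective library size, and a log2 ratio has a prior count of 2 added, while its interval comes from the counts alone. The Magi1 region, at an internal start of a tight-junction scaffold gene, held 49, 162 and 84 counts (10.9, 44.3 and 15.3 CPM). Its log2 ratio of the library labelled cKO+ over that labelled control+ was 1.98 (1.56 to 2.52). At Fez1, a gene of axon growth, the counts were 118, 21 and 82, and the same ratio was -2.11 (-2.93 to -1.51). The Magi1 window held no match to the 4 motifs, and the Fez1 window held 1 GGGCGG match. The region at Prkag2, a subunit of the energy sensor AMPK, held 52, 27 and 206 counts, high in the library labelled cKO-. Slc25a21, a mitochondrial carrier, was the reverse, with 116, 112 and 28 counts. At Lhx2, a homeobox factor of hair follicle stem cells, the counts were 37, 49 and 217. The ratio of the library labelled cKO- over that labelled cKO+ at Lhx2 was 1.53 (1.11 to 2.04), and 0.98 once each chromosome was centred on its median. Prdm10 and Midn were even, with 549, 420 and 609 counts and 477, 416 and 617 counts.

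Over the 563 distinct windows inside these regions, the median GC content was 63.3%, against 52.7% over all 32817 distinct windows. The observed over expected CpG ratio had a median of 0.74 against 0.38. GGGCGG was found in 63.1% of the windows and in 35.6% of all windows, and CCAAT in 32% and 37.4%. TGANTCA was found in 8.7% and 7.81%, and GGAATG in 11.2% and 14.7%. A match is a description of the letters and not a bound site. Only 1561 of the 2005 nearest genes are in the promoter table, and no genome sequence was used here, so the other regions were not searched.

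MicroRNAs are short RNAs that pair with messenger RNAs through their seed, bases 2 to 8, and lower the output of the message. RefSeq places 1005 hairpins in the table used, and 13 lay in 12 of the broad regions. The mature sequences of 3 of them, chosen after the values were seen, are given to identify the microRNAs. Capitals mark the seed.
mmu-miR-203-3p: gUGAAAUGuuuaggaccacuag
mmu-miR-203-5p: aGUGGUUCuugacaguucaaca
mmu-miR-199a-5p: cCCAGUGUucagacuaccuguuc
mmu-miR-199a-3p: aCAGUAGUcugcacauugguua
mmu-let-7i-5p: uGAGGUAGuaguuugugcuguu
mmu-let-7i-3p: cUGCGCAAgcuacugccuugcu

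No seed is shared among these 6. Mir203, whose microRNA is abundant in differentiating epidermis, lies at chr12:112130880-112130955, inside the region chr12:112129340-112131112 near Aspg. That region held 89, 165 and 359 counts (19.7, 45.1 and 65.3 CPM), lowest in the library labelled control+. The ratios over that library were 1.17 (0.81 to 1.58) in the library labelled cKO+ and 1.70 (1.39 to 2.08) in that labelled cKO-. Mir199a-1, a microRNA of mesenchymal cells, lies on the minus strand inside Dnm2 at chr9:21496495-21496564. Its region, chr9:21496457-21498050, ran the other way, with 135, 18 and 37 counts. The libraries labelled cKO+ and cKO- lay below that labelled control+, with ratios of -2.50 (-3.40 to -1.89) and -2.08 (-2.72 to -1.62). Mirlet7i, near Mon2, had 209, 180 and 381 counts (46.4, 49.2 and 69.3 CPM), under 2-fold in each pair. Among the other 9 regions, that of Mir3075 in Zmiz1 was high in the library labelled cKO+ (69, 142 and 48 counts). The region of miR-3154 in Dnm1 was high in the library labelled control+ (83, 26 and 15 counts). That of miR-12182 near Dhx40 was low in the library labelled cKO- (72, 37 and 17 counts).

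Libraries held 4335304, 3812880 and 5485317 nuclear counts. The sort marker had no broad region of the kind described, but the 8 regions nearest to Epcam summed to 123, 258 and 188 CPM, so the library labelled cKO- was above that labelled control+. Regions of the Y chromosome summed to 75.2, 59.6 and 217 CPM, so the 2 libraries whose titles name the same tumour differed there. Fat1 itself had 49 regions with 268, 390 and 488 CPM, and since the labels do not say which exons are deleted, this checks no label.

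Peak calls and counts disagreed for 2 of the libraries within the broad regions too. A peak call in each library was present in 1912 of them (77.3%), and 17 had no call. Calls of control+ alone marked 64 regions, whose median counts were 22.5, 18.5 and 88.5, and 62 of the 64 were highest in the count column of cKO-. Calls of cKO- alone marked 81 regions, with medians of 61, 19 and 21, and 75 were highest in the count column of control+. Calls of cKO+ alone marked 10 regions, all highest in its own column, with medians of 19, 73.5 and 18.5. Which of the 2 kinds of column carries the right name was not tested, so each direction here is between names of count columns. If the count columns named control+ and cKO- were exchanged, a ratio given as cKO+ over control+ would read as cKO+ over cKO-. One given as cKO- over cKO+ would read as control+ over cKO+, and one given as cKO- over control+ would change sign.

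**Figure D1:**
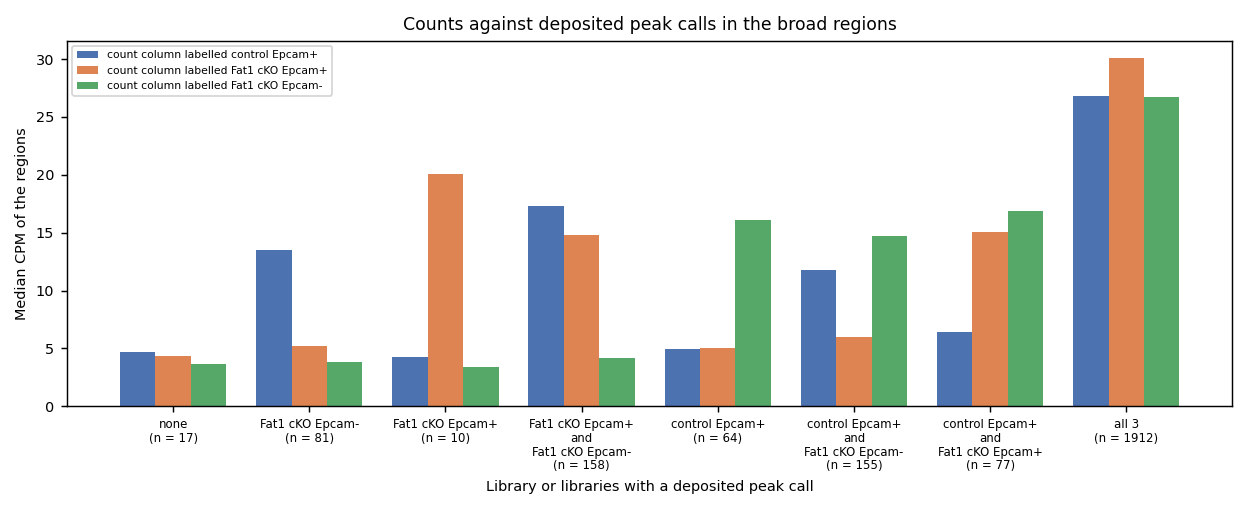
Median CPM of broad regions away from gene ends, grouped by the libraries in which the authors called a peak (horizontal axis, with the number of regions), as 1 bar per count column. The 64 regions with a call in control+ alone were highest in the column of cKO- (16.1 CPM against 4.99), and the 81 with a call in cKO- alone in the column of control+ (13.5 CPM against 3.82).

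The regions were 1500 to 3936 bp wide, with a median of 1743 bp, and 588 (23.8%) reached 2000 bp. They took 6.33% of the length of all nuclear regions and 7.28%, 7.29% and 6.93% of the nuclear counts. Median counts per region were 101, 87 and 122, with ranges of 4 to 913, 2 to 884 and 0 to 1000. Median levels were 22.4, 23.8 and 22.2 CPM. Per kb of width, the medians were 12.5, 13.1 and 12.2 CPM. Narrower regions at the same distances had 6.40, 6.31 and 7.30 CPM per kb, broad regions at gene ends had 24.7, 26.04 and 25.2, and broad regions far from genes had 6.0, 6.61 and 7.70. The broad regions thus lay between narrow distal regions and gene ends in every library. Just inside the width limit, the 315 regions of 1500 to 1549 bp had median counts of 64, 56 and 88. Just outside it, the 350 regions of 1450 to 1499 bp had 69, 60 and 89. Wider regions had somewhat higher CPM, with Spearman correlations across the 2474 regions of 0.28, 0.25 and 0.26, which share each library's depth and say nothing of conditions.

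Midpoints of 1591 regions (64.3%) lay inside a gene body, the same share as of narrow distal regions (64.3%). The gene table gives gene bodies only, so exons, introns and UTRs were not assigned. The other 883 lay outside, at a median distance of 15265.5 bp from the gene, 305 of them within 10 kb. Among 1237 regions inside a gene whose strand was known, 359, 366, 282 and 230 fell in 4 equal parts of the gene counted from its 5′ end. The first part held 29% of the broad regions and 23.7% of the narrow ones, and 20.5% of the broad regions with no RefSeq start. A midpoint inside a long non-coding RNA gene was found for 351 regions (14.2%).

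The regions with the most CPM, not divided by width, lay in Sfi1, Rbpj, Schip1, near Zfp958, in Slc39a10 and Clcn4, and near Kctd15 and Slc2a3. Sfi1, a centrosome gene, is also the widest at 3936 bp, with 913, 884 and 767 counts. It lies in a locus with near-identical copies, so its counts are uncertain. Rbpj, the nuclear partner of Notch, had 564, 533 and 1000 counts over a RefSeq start of its own. Kctd15 stood apart from the other 7, with 534, 783 and 478 counts and a ratio of -1.30 (-1.47 to -1.13) between the cKO libraries, or -0.81 with each chromosome centred on its median. The other widest regions, 3407 to 3513 bp, lay at Ptch1 (the Hedgehog receptor; 285, 250 and 429 counts), Adgrl3, Clic6, Ltn1, Kdm6b (an H3K27 demethylase; 522, 517 and 550), Hivep2 and Saxo1. Width did not fix the level: the Saxo1 region held 26, 28 and 25 counts and the Kdm6b region more than 500 in each library.

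Of the 2474, 1300 (52.5%) stayed under 2-fold in all 3 pairs of libraries, with no count minimum. This share was not computed over all nuclear regions, so it is not a trait of the broad regions. At least 100 counts in each library were held by 789 regions. In 73 of them all 3 log2 ratios lay within 0.2 of 0, a count not made over all nuclear regions. The 5 of these with the most counts lay at Prdm10, Midn, Ell2 (an elongation factor of RNA polymerase II; 431, 374 and 527 counts), Chd9 (a chromatin remodeller; 407, 324 and 528) and Irx2 (a homeobox factor; 407, 336 and 502).

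A region counted as higher or lower when its ratio reached 2-fold and either library of the pair held 20 counts, and the share of all nuclear regions past the same rule gives the background. Column names set the direction of every ratio. For the library labelled cKO+ over that labelled control+, the first pair, 265 of 2388 broad regions were higher (11.1%, background 18.8%) and 208 were lower (8.71%, background 16.3%). The second pair, the library labelled cKO- over that labelled cKO+, had 272 of 2364 higher (11.5%, background 25%) and 386 lower (16.3%, background 17.5%). The third pair, the library labelled cKO- over that labelled control+, had 400 of 2396 higher (16.7%, background 28.4%) and 442 lower (18.4%, background 19.3%). The share of broad regions past 2-fold was below the background in all 6 cases, by least among regions lower in the library labelled cKO-. Median log2 ratios were 0.04, -0.09 and -0.04, against 0.02, 0.14 and 0.19 over all nuclear regions. Centring each chromosome on its median left 12.8% higher and 21.4% lower in the third pair, and scaling by total counts left 9.72% higher and 10.8% lower in the first. Each library enters 2 of the 3 pairs, so the pairs are not independent.

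The background mixes depths, since most nuclear regions are narrow and hold few counts. With at least 100 counts in 1 library of the pair, the broad regions had 11.2% higher and 7.83% lower in the first pair, against 10.5% and 5.82% of all nuclear regions. Narrow distal regions of that depth had 20.9% and 12.1%, and broad regions at gene ends had 3.6% and 1.81%. In the second pair at that depth the shares were 12.6% and 12.4% of the broad regions away from gene ends, 21.4% and 17.8% of the narrow distal ones, and 4.85% and 2.35% of the broad ones at gene ends. In the third they were 19.1% and 15.1%, 32.5% and 20.4%, and 7.07% and 2.16%. At both count limits the shares of the broad distal regions lay between those of narrow distal regions and gene ends. At the higher limit they exceeded the share of all nuclear regions in 4 of 6 cases. Over all regions the second pair had 12.7% higher and 9.46% lower, and the third 19.4% and 10.6%. Broad regions more than 50 kb from any gene had larger shares than the broad distal regions in all 6 cases at both limits. With at least 100 counts their shares were 19.9% and 10.9%, 18.6% and 13%, and 31.5% and 15.2% in the 3 pairs.

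**Figure D2:**
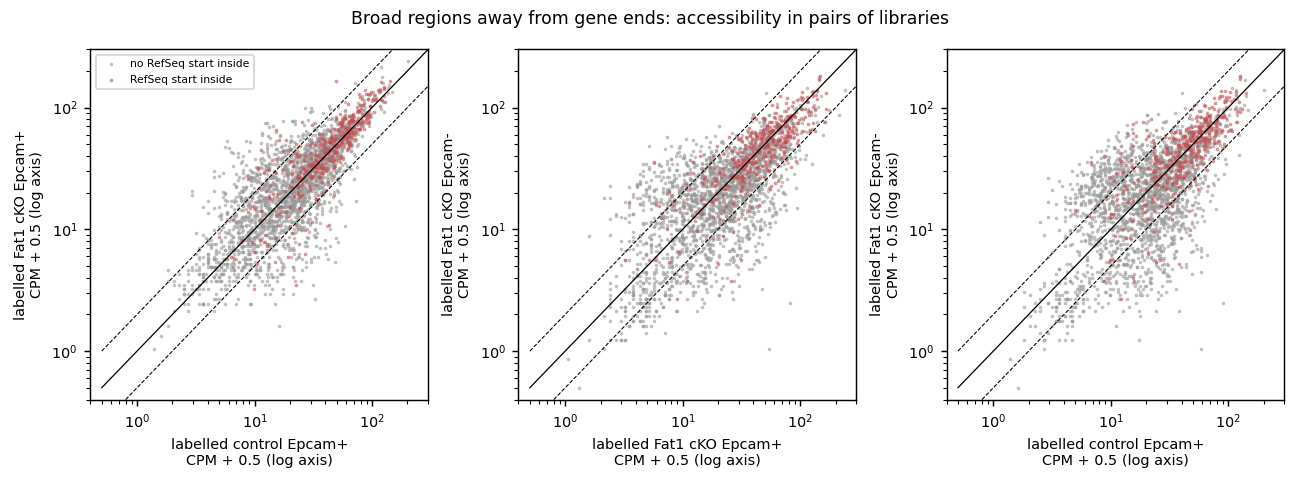
CPM of each of the 2474 broad regions away from gene ends in pairs of libraries, with 0.5 added and both axes on a log scale. Red points are the 417 regions with a RefSeq start inside, grey points the other 2057, the solid line marks equal values and the dashed lines 2-fold; red points lie closer to the solid line and higher along it.

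Regions with a RefSeq start inside had higher levels and were less often past 2-fold than those without. Their medians were 21.3, 22.4 and 22.5 CPM per kb, against 11, 11.4 and 10.8 in the 2057 others. Their median counts were 192, 164 and 247, against 89, 74 and 105. In the first pair 4.56% were higher and 3.12% lower, against 12.5% and 9.89% of the regions without a start. The second pair gave 4.56% and 5.76% against 13% and 18.6%, and the third 6.95% and 4.56% against 18.7% and 21.4%. Regions with at least 100 counts kept this order in all 3 pairs, for example 7.07% and 3.93% against 22.5% and 18.3% in the third.

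Among regions more than 2 kb from gene ends, the share past 2-fold was smaller in the widest than in the narrowest bin of width in the first pair and, in the other pairs, among regions higher in cKO-. In the first pair 29.4% of regions under 500 bp were higher and 27.7% lower. From 1500 to 1749 bp the shares were 12.7% and 9.51%, and from 2500 bp they were 5.93% and 4.44%. The share of regions with a start inside went over the same bins from 0.215% to 35.8%, and the median counts from 8, 7 and 12 to 196, 190 and 255. In the pair of Fat1 cKO libraries the share of regions higher in cKO- went from 43.5% to 3.03%, and in the third pair from 46.6% to 6.72%. The share lower in cKO- had no such order, lying between 13.6% and 22.6% over the bins of the second pair and between 14.2% and 25.2% over those of the third. Without the regions that hold a start, the first pair had 8.14% higher and 5.81% lower among the 86 regions of the widest bin, against 29.4% and 27.7% of the narrowest. The share lower in cKO- was then larger in the widest bin than in the narrowest, at 20.5% against 15.7% in the second pair and 21.2% against 17.7% in the third. Depth moves with width here, and its part in these shares was not tested.

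**Figure D3:**
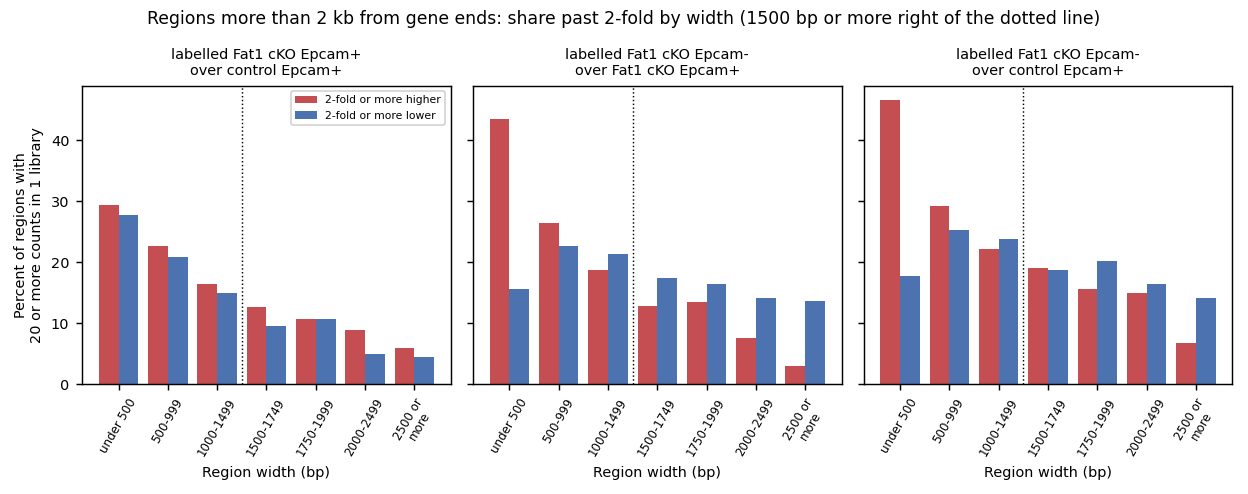
Percent of regions at least 2-fold higher (red) or lower (blue) by region width in bp, for regions on chromosomes 1 to 19 more than 2 kb from gene ends and within 50 kb of a gene, with 1 panel per pair of libraries. Bins right of the dotted line are the broad regions; the shares higher in cKO- drop most from the narrowest to the widest bin (43.5% to 3.03% in the second pair), and the shares lower in cKO- lie between 13.6% and 22.6% in the second pair and between 14.2% and 25.2% in the third.

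By the library with the highest CPM, 789, 867 and 818 regions fell to the 3 libraries (31.9%, 35% and 33.1%). The lowest library was more uneven, with 808, 616 and 1050 regions (42.4% in the library labelled cKO-). Shares by highest or lowest library were not computed over all nuclear regions, so they are not a trait of the broad regions. Regions at least 2-fold above both other libraries numbered 118 of 2407 for that labelled control+ (4.9%, background 7.85%), 82 for that labelled cKO+ (3.41%, background 6.83%) and 168 for that labelled cKO- (6.98%, background 15.7%). Regions at least 2-fold below both others numbered 154 (6.4%, background 8.75%), 53 (2.2%, background 5.69%) and 270 (11.2%, background 10.4%). The largest such class was low in the library labelled cKO- alone, and its share lay near the background. Over the alternatives that share ranged from 9.91% to 13.2%. Median levels of this class were 25.7, 24.9 and 6.09 CPM.

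Levels 10-fold or more below both other libraries, with at least 50 counts in each of those, were found in 3 regions, all low in the library labelled cKO-. The first, chr7:30009490-30010991 inside Zfp568, a KRAB zinc finger repressor, had 263, 197 and 3 counts. The CPM ratio of the library labelled control+ to that labelled cKO- was 107 (interval 36.2 to 522), and that of the library labelled cKO+ was 98.7 (33.3 to 483). The second, chr7:109456214-109457796 inside Trim66, a chromatin reader of the TRIM family, had 400, 295 and 11 counts, with ratios of 44.4 (24.5 to 89.6) and 40.3 (22.2 to 81.7). The third, chr1:173802195-173803823 near Ifi204, a DNA sensor of the interferon-inducible cluster, had 158, 172 and 15 counts. Genes of that cluster are near-identical in places, so its counts are uncertain. No broad region was 10-fold above both others, and none was 10-fold below both others in another library. The 10-fold rule was not applied to all nuclear regions, so these counts are not a trait of the broad regions.

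The first pair had its largest ratios at Dgki, a diacylglycerol kinase (chr6:37149001-37150701; 24, 192 and 48 counts; 3.20, interval 2.69 to 3.98), and Abca13, a lipid transporter (23, 171 and 114 counts; 3.09, 2.56 to 3.89). Myh14, a non-muscle myosin, followed with 25, 169 and 125 counts, then Cacna1g, a calcium channel, with 26, 155 and 153. A region 5916.5 bp from Src, the tyrosine kinase, held 18, 108 and 38 counts. Prkd2, a kinase of the protein kinase D family, had 27, 152 and 93, and Plcg2, a phospholipase, had 53, 272 and 263. Cacna1g and Plcg2 were thus high in the libraries labelled cKO+ and cKO-, while Dgki and Src were high in that labelled cKO+ alone. Abca13, Myh14 and Prkd2 were also more than 2-fold higher in the library labelled cKO- than in that labelled control+.

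The lowest ratios of the first pair were near Olfr16, an olfactory receptor gene (chr1:172959476-172961280; 146, 8 and 71 counts; -3.64, -5.13 to -2.87), and in Smyd3, a methyltransferase (139, 11 and 20 counts; -3.18, -4.39 to -2.47). Chrna1, an acetylcholine receptor subunit, followed with 216, 18 and 33, and Slc16a10, an amino acid transporter, with 188, 19 and 55. A region of Magi1, chr6:94074929-94076461, held 110, 12 and 35 counts. It lies in the same gene as the start shown above, which differed in the opposite direction between these libraries. Tenm3, a teneurin adhesion protein, had 230, 27 and 99 counts, Disc1 had 194, 25 and 82, and a region near Rab11fip4 had 182, 21 and 59. All 8 were also lower in the library labelled cKO- than in that labelled control+.

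The second pair had its largest ratios near Kcnk2, a potassium channel (23, 7 and 122 counts; 3.27, 2.45 to 4.88), and in Tenm2 (chr11:36432774-36434280; 40, 17 and 264 counts; 3.25, 2.66 to 4.17). Ctnnd2, the neuronal delta-catenin, had 28, 15 and 185, Macrod2 had 30, 14 and 154, and a region near Mdm1 had 94, 16 and 185. Below Zfp568, Trim66 and Ifi204, the lowest were Thsd4 (85, 108 and 16 counts; -3.16, -4.20 to -2.58) and St3gal3, a sialyltransferase (264, 183 and 30 counts; -3.10, -3.81 to -2.63). Sphk1, the sphingosine kinase, had 116, 140 and 23, and Megf10, an engulfment receptor, had 77, 161 and 27. At each of these low ratios the libraries labelled control+ and cKO+ were both above the third.

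The third pair had its largest ratios near Ankrd50 (11, 68 and 143 counts; 3.20, 2.53 to 4.45) and in Ambra1, an autophagy regulator (14, 14 and 135 counts; 2.82, 2.19 to 3.89). A region near Ntrk2, the receptor of BDNF, held 12, 32 and 112. Scel, sciellin of the cornified envelope, had 22, 21 and 188, Auts2 had 15, 29 and 123, Crybg1 had 28, 59 and 215, and Kif21b, a kinesin, had 40, 43 and 297. After Zfp568 and Trim66, the lowest ratio was 48564 bp from Col1a2, a chain of type I collagen (chr6:4456117-4457991; 168, 47 and 9 counts; -4.18, -5.66 to -3.55). Anks1b had 264, 37 and 22, Tcf4, a helix-loop-helix factor, had 106, 20 and 9, Foxs1, a forkhead factor, had 218, 29 and 21, and Bpgm had 295, 113 and 31. In these 5 regions the library labelled cKO+ lay between the other two.

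The nearest gene had a single broad region for 1655 genes, 2 for 264 genes and 3 or more for 86. Foxp1, a forkhead repressor, had the most, 6 regions inside a gene of 597405 bp, with 658, 435 and 540 counts in all. They differed among themselves: chr6:99327518-99329040 had 94, 24 and 19 counts, chr6:99027037-99029053 over a RefSeq start had 216, 159 and 234, and chr6:99343622-99345270 had 57, 25 and 57. Rerg, a small GTPase, had 5 regions in 115672 bp, among them chr6:137098738-137100733 with 84, 26 and 107 counts and chr6:137162325-137164108 with 14, 31 and 51. Arid5b, a DNA-binding factor, and Aopep, an aminopeptidase, also had 5 each, all under 2-fold in each pair. Dnm3, a dynamin, had 5 regions summing to 559, 264 and 324 counts, 3 of them lower in the library labelled cKO- than in that labelled control+. Arhgap26 and Ank3 had 5 regions each, and Mical3, Tacc1, Arhgap23 and Palld 4 each.

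Of the 350 genes with several broad regions, 71 had at least 1 higher and 67 at least 1 lower in the first pair. Both were found in 8 genes. The second pair gave 76, 121 and 11, and the third 99, 127 and 16. These gene counts used 2-fold with no count minimum and were not made over all nuclear regions. Magi1 and Rerg had both in all 3 pairs, and Arl15, Atp10b, Btbd9, Lpp and Lrmda had both in the second and the third. These names were chosen after the values were seen.

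Regions whose midpoints lay within 12.5 kb of the next were joined into runs. Runs were few: 2317 regions stood alone, 71 runs had 2 regions and 5 had 3, among them those at Trim27 and Olfr1368, Arhgap23, Plec and Prag1. The Plec run lies in plectin, a linker of keratin filaments to hemidesmosomes. Its regions had 258, 300 and 306, then 229, 277 and 170, then 308, 246 and 278 counts. In the 81 pairs of neighbours, both were past 2-fold the same way in 2, 6 and 5 pairs in the 3 comparisons, and in opposite ways in 1, 1 and 1. Only 1 neighbour was past 2-fold in 15, 28 and 32. No count minimum was applied to neighbours. Neighbours past 2-fold the same way included the 2 regions of Il34, a cytokine of macrophages and Langerhans cells (255, 198 and 79 counts, and 246, 268 and 104). Mical2, an actin oxidase, was alike (161, 213 and 84, and 176, 114 and 44), as was Fmnl3, a formin (83, 48 and 18, and 196, 83 and 26). In Inpp4b, a lipid phosphatase, both regions were high in the library labelled cKO- (33, 37 and 125, and 73, 39 and 179).

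Gene lists were taken from the biology of squamous carcinoma and of epithelial-mesenchymal transition, the change in which epithelial cells lose junctions and gain mesenchymal genes. Epithelial genes include those of junctions and of adhesion to the basement membrane. A bulk library cannot tell fewer cells with an open region from less opening per cell. For the markers of sorted cell types, Trp63, Zeb1, Zeb2 and Pdgfra each had 1 broad region, and none of the 16 immune, 8 melanocyte and 7 skeletal muscle markers had one, so those cell types cannot be read from regions of this kind. Accessibility near a gene does not measure its transcript. The counts of each list are to be read beside the shares over all broad regions, which were 11.1% higher and 8.71% lower in the first pair, 11.5% and 16.3% in the second, and 16.7% and 18.4% in the third, with medians of 0.04, -0.09 and -0.04.

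Of 43 epithelial identity genes, 12 were nearest to 14 broad regions. In the first pair, cKO+ over control+, 12 of the 14 were higher and none lower, with a median of 1.23 against 0.04 over all broad regions and 0.02 over all nuclear regions. The third pair, cKO- over control+, gave 11 higher and none lower, with a median of 1.21. Between the cKO libraries 1 was higher and 1 lower, with a median of 0.01. The junction genes included Pkp1, plakophilin of desmosomes (chr1:135890983-135892507; 50, 223 and 244 counts; 2.41, 2.01 to 2.93 in the first pair), and Cldn3, a claudin of tight junctions (50, 214 and 148; 2.35, 1.95 to 2.87). Dsg3, a desmosomal cadherin, had 52, 133 and 198, Jup, plakoglobin, had 68, 165 and 170, and the neighbouring regions of F11r, a junctional adhesion molecule, had 111, 210 and 205, and 55, 103 and 122. Among genes of basement membrane adhesion, Lama3, a laminin chain, had 59, 205 and 336 in one region and 16, 28 and 43 in another. Itga6 had 32, 64 and 85, and Col17a1 had 53, 80 and 149. Ovol1, a repressor of mesenchymal genes, had 21, 45 and 150, and Perp, a desmosome gene, 41, 72 and 214. The control+ column was lowest in these regions, and 1 region of the list not named here did not follow that order.

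Total counts in place of TMM scaling left 9 of the 14 epithelial regions higher in the first pair, and centring each chromosome on its median left 7 higher in the third, where those of Col17a1, Itga6, Jup and the weaker one of Lama3 had log2 ratios of 0.62 to 0.98. Centring subtracts the median of all regions with enough counts on the chromosome. Over all nuclear regions the third pair had a median of 0.19, so centring also removes this general offset. The epithelial ratios follow the column names. With the exchange described above the 12 regions would be higher in the library labelled cKO+ over that labelled cKO-.

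Of 44 mesenchymal and EMT genes, 12 were nearest to 15 broad regions. In the first pair none was higher and 4 were lower (median -0.35), between the cKO libraries none was higher and 5 lower (median -0.74), and in the third pair none was higher and 8 lower (median -1.21). Over all broad regions 8.71%, 16.3% and 18.4% were lower, with medians of 0.04, -0.09 and -0.04. Besides the Col1a2 region given above, chr6:4488057-4490154 near the same gene had 132, 39 and 26 counts, with a ratio of -1.10 between the cKO libraries that became -0.78 with each chromosome centred on its median. A region near Col1a1 had 112, 62 and 50. Mmp19, a matrix protease, had 313, 92 and 91, and Axl, a receptor tyrosine kinase, had 420, 255 and 206. Cald1, a regulator of actin and myosin, had 3 regions, with 143, 170 and 39, then 206, 131 and 75, then 130, 112 and 130 counts. Among the transition factors, Snai2 had 48, 39 and 24, Zeb2 had 139, 98 and 87, and Zeb1 had 281, 185 and 263. Itgav (287, 175 and 447) and Mmp14 (126, 132 and 283) were highest in the library labelled cKO-. A prior count of 0.5 or total counts put 1 region higher between the cKO libraries.

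**Figure D4:**
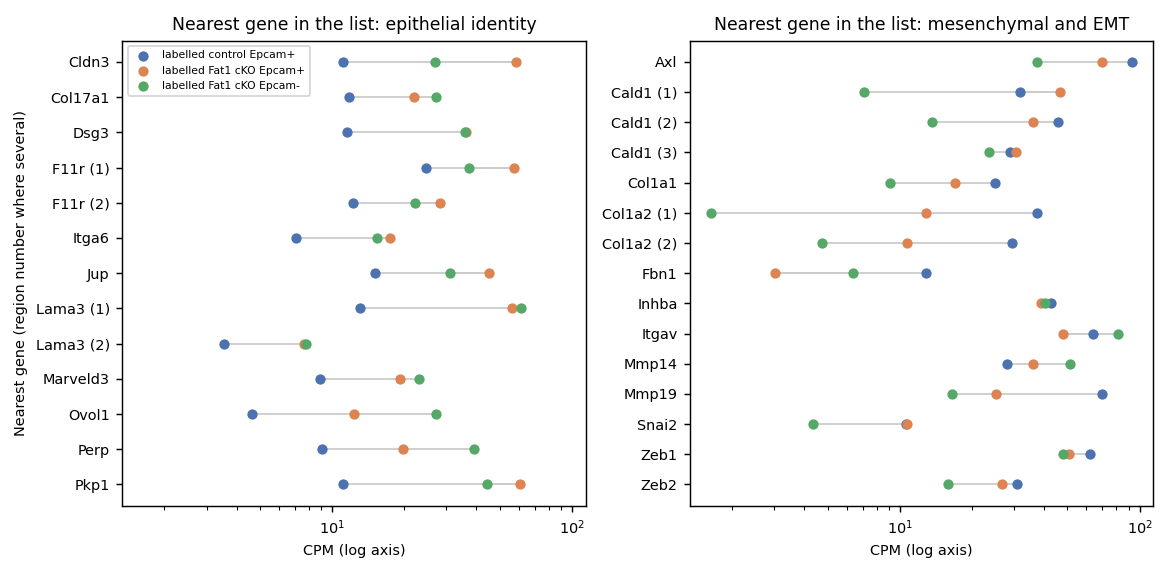
CPM (log axis) of each broad region nearest to an epithelial identity gene (left, 13 of the 14 regions) or a mesenchymal and EMT gene (right, 15 regions) in the 3 libraries, with 1 row per region and 1 point per library. On the left the library labelled control+ is lowest in the 13 regions shown, while the other one, not shown, does not follow that order; on the right the library labelled cKO- is lowest at Cald1, Col1a1, Col1a2, Mmp19, Axl, Snai2, Zeb1 and Zeb2 but not at Fbn1, Inhba, Itgav and Mmp14.

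Transcription factors of keratinocytes had 9 regions near 7 of 26 genes, with 2 higher and 1 lower in the first pair, none higher and 1 lower in the second, and 4 higher and 2 lower in the third (medians 0.47, -0.04 and 0.20). In the third pair 16.7% of all broad regions were higher and 18.4% lower, and centring each chromosome on its median left 2 of the 9 higher and 2 lower, with a median of -0.12 (0.42 and -0.21 in the other pairs). Trp63, the master factor of stratified epithelia, had 23, 70 and 101 counts (1.82, 1.21 to 2.65 in the first pair), and Grhl3, a grainyhead factor, had 45, 100 and 146. A region 12014 bp from Sox2, a factor of squamous tumours, ran the other way with 147, 25 and 43 (-2.18, -2.93 to -1.64). Of 2 regions of Runx1, chr16:92653511-92655146 had 114, 131 and 44, and chr16:92696580-92698860 had 247, 256 and 346. Squamous differentiation genes had 3 regions. Gjb6, a connexin, had 34, 110 and 80 counts, Sbsn, suprabasin, had 48, 43 and 158, and Sprr3, a cornified envelope protein, had 26, 27 and 48.

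AP-1 is a pair of Fos and Jun family proteins that opens chromatin in keratinocytes. Its genes had 4 regions, and only Jun was past 2-fold (61, 134 and 322 counts; 2.08, 1.71 to 2.53 in the third pair). Regions at Fos (210, 192 and 214), Fosb (302, 264 and 297) and Atf3 (104, 72 and 160) were under 2-fold in each pair.

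YAP and TAZ are coactivators that work with TEAD factors and are held back by Hippo signalling. Their genes and targets had 14 regions near 9 of 30 genes, with 3 higher and 1 lower in the first pair, 1 and 3 in the second, and 4 and 3 in the third (medians -0.07, -0.05 and -0.42; 13 of the 14 had enough counts in the first pair). Over all broad regions the shares were 11.1% and 8.71%, 11.5% and 16.3%, and 16.7% and 18.4%. With chromosomes centred, 1 was higher and none lower in the second pair, and 3 were higher and 2 lower in the third. One region of Yap1 itself, 2685.5 bp outside the gene, had 19, 12 and 71 counts, and another inside it had 72, 19 and 48. Both regions near Tead1 were low in the library labelled cKO- (96, 92 and 64, and 123, 95 and 64), with ratios to that labelled cKO+ of -1.08 and -1.13 that became -0.59 and -0.64 with each chromosome centred on its median. Dlc1, a GTPase-activating protein, had 2 regions lowest in the library labelled control+ (64, 150 and 265, and 40, 82 and 128). Arhgef17 had 106, 49 and 25, and its ratio of -1.47 between the cKO libraries became -0.98 with chromosomes centred.

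The TGF-β and BMP pathway had 14 regions near 12 of 35 genes, with 1 higher and 1 lower, 1 and 3, and 3 and 5 in the 3 pairs (medians -0.20, -0.11 and -0.45). The third pair had 16.7% of all broad regions higher and 18.4% lower, and the second 11.5% and 16.3%. Centred chromosomes gave none higher and 3 lower in the second pair, with a median of -0.41, and the same counts as before in the others (medians -0.07 and -0.67). Among ligands, the 2 regions near Bmp7 had 67, 239 and 401 counts (2.26, 1.92 to 2.69 in the third pair) and 32, 40 and 161. Tgfb2 had 211, 135 and 223. Among receptors, Bmpr1b had 56, 54 and 17, and Tgfbr2, with 161, 162 and 196, was under 2-fold in each pair. Of proteins that store the ligand, Ltbp2 had 218, 179 and 60 (-2.12, -2.61 to -1.74 between the cKO libraries). Among inhibitors, Ski had 94, 153 and 335, and the 2 regions near Smad6 had 98, 44 and 46, and 42, 26 and 13.

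Hair follicle stem cell genes had 15 regions near 9 of 19 genes, and none was higher and 1 lower in the first pair, with 2 and 2 in each of the others (medians 0.01, -0.15 and -0.09). All broad regions together had 11.1% and 8.71% in the first pair, 11.5% and 16.3% in the second, and 16.7% and 18.4% in the third. When chromosomes were centred, 1 was higher and 3 lower in the second pair and 2 and 4 in the third (medians -0.30 and -0.12). Besides Lhx2, a region of Nfix had 37, 26 and 166 counts while another in the gene had 66, 35 and 83. Nfatc1 had 122, 16 and 22 in one region and 274, 220 and 285 in another. Lrig1, a brake on growth factor receptors, had 3 regions, with 169, 158 and 194, then 307, 278 and 206, then 99, 81 and 62 counts.

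The Fat cadherins each had 1 region. Fat1 had 181, 169 and 385 counts at chr8:44934632-44936361, inside the gene, under 2-fold in each pair. Fat2, the epidermal member, had 26, 55 and 106, Fat3 had 16, 48 and 67, and Fat4 had 61, 10 and 28 (-2.14, -3.44 to -1.33 in the first pair). Kinase and stemness genes had 19 regions near 14 of 33 genes, with 3 higher and none lower, 1 and 1, and 2 and 2 in the 3 pairs (medians 0.35, -0.37 and 0.19). Of all broad regions, 11.1% and 8.71%, 11.5% and 16.3%, and 16.7% and 18.4% were higher and lower in these pairs. Centring the chromosomes gave 1 higher and 4 lower in the second pair, and 1 and 2 in the third with a median of -0.06. The 2 regions near Src were 121, 233 and 368 counts at chr2:157410476-157413022 and, as given above, 18, 108 and 38. Camk2d, a calcium-dependent kinase, had 51, 20 and 114, Camk2g had 57, 116 and 134 in 1 of 2 regions, and Nrp2, a VEGF and semaphorin receptor, had 41, 55 and 146 in 1 of 2. Notch1 had 125, 72 and 60 and a region of Notch2 had 73, 33 and 24. Both regions of Egfr and those of Epha2, Myc and Ccnd1 stayed under 2-fold in each pair.

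Markers of other cells had few broad regions. Emcn and Flt1, of endothelial cells, had 96, 40 and 50 counts and 74, 136 and 121. Pdgfra, of fibroblasts, had 197, 155 and 158, and Lep, of adipocytes, had 75, 176 and 258. Housekeeping genes had 4 regions. That inside Ywhaz (522, 509 and 761) was under 2-fold in each pair. Of the 2 regions outside Ywhaz, one had 48, 118 and 155, a ratio of 1.56 (1.10 to 2.12) in the first pair, and the other had 126, 72 and 128.

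Chromosomes differed in their median ratios, over the broad regions and over all regions. In the second pair, the 155 broad regions of chromosome 6 had a median of -0.65, against -0.32 over all regions of that chromosome. The 172 of chromosome 7 had -0.71 against -0.49. On these chromosomes 35.6% and 36.8% of the broad regions were lower. The share lower among all regions of each chromosome was not computed, so these shares are not a trait of the broad regions. Chromosome 2 lay on the other side, at 0.23 against 0.55 over all its regions, and chromosome 15 had -0.37 against -0.08. Over all chromosomes together the second pair had -0.09 for the broad regions and 0.14 for all nuclear regions. A lower median of the broad regions is thus not particular to the chromosomes named here. In the first pair, the largest median was 0.28 on chromosome 11, against 0.25 over all its regions. Dgki, Myh14, Prkd2, Zfp568, Trim66, Axl, Cald1, Col1a2, Foxp1 and Rerg lie on chromosomes 6 and 7. With each chromosome centred on its median, Zfp568 and Trim66 kept ratios of -5.30 and -4.57 between the cKO libraries.

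**Figure D5:**
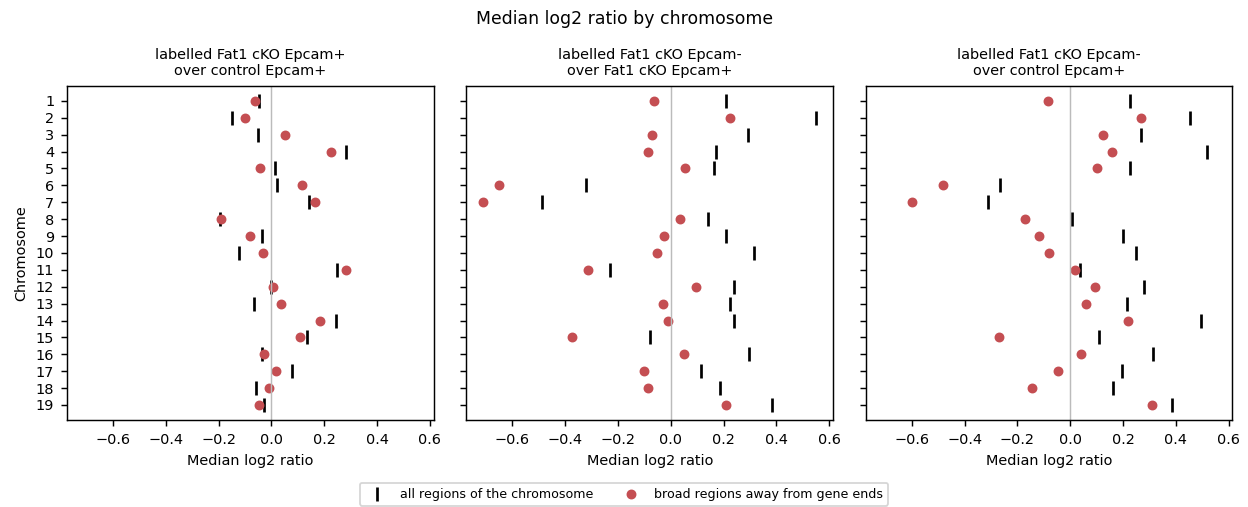
Median log2 ratio of the broad regions away from gene ends (red points) and of all regions with enough counts (black ticks) on each of chromosomes 1 to 19, with 1 panel per pair of libraries. Chromosomes 6 and 7 lie lowest in both comparisons of the library labelled cKO-, for the broad regions and for all regions.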

How the data were processed

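Each of 3 libraries has a column of raw counts and a column of peak calls (other values, yes or no) in a table of merged regions that the authors deposited. The submitters' processing notes name the mm10 (GRCm38) build and the tools Picard, SAMtools, MACS2 2.1.0.20151222 and Bowtie2 2.2.6 without saying what each did. Per the labels' protocols, nuclei met Tn5 transposase for 30 min at 37 °C and fragments of 200 to 800 bp were kept. The counting tool, its filters and any Tn5 shift were not given in the sources used here. Region names say that the regions were merged, and how their width was set was not stated.

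Mitochondrial regions were left out. Effective library sizes used TMM (edgeR 4.0.16, R 4.3.3; factors 1.04, 0.959 and 1.00), and median-of-ratios factors of DESeq2 1.42.0 were an alternative. CPM and log2 ratios with a prior count of 2 were computed in Python 3.11.15 and tested on simulated data. A count of 0 allows up to 3 counts (0.665, 0.820 and 0.545 CPM). Genes came from a RefSeq table of GRCm38.p6. Coordinates are printed as deposited, since no source says whether starts count from 0 or 1.

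Named regions were, per pair, the 8 highest and 8 lowest in which either library reached 100 counts, the 8 with the most CPM, the 8 widest and the 5 most counted even ones. Unnamed gene models kept their place but were left out of the names, and some genes counted here are not reported by name. Named genes were the 12 with the most regions and, per list, those with at least 3 regions or the 3 largest ratios. Other list genes, neighbours and windows were named after their values were seen. The regions and lists were chosen with earlier results of these data known. Alternatives covered scaling, prior, count, width and distance limits, peak calls and gene assignment.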

Additional observations from a re-analysis of the deposited data

How the results depend on the processing

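Of 165 recomputed shares, 157 stayed within 1.5 times the reported one. They were shares of regions past 2-fold and shares by the library with the highest CPM. The 8 that moved were all shares past 2-fold. With a width limit of 2000 bp, 4.89% of regions were lower in the first pair and 6.55% higher in the second. The shares above both others were then 2.43% (control+), 1.39% (cKO+) and 4.35% (cKO-), and 0.696% of regions were below both others in cKO+. At 1000 bp, 13.4% were lower in the first pair and 4.21% were below both others in cKO+. The cause was not tested. The shares 2-fold above or below both others were added after seeing the data, with the same alternatives.

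Total counts in place of TMM moved the median of the first pair by -0.11, giving 9.72% higher and 10.8% lower. Centring each chromosome on its own median gave the third pair 12.8% higher and 21.4% lower. That median was taken over all regions of the chromosome with enough counts, so centring also removes an offset common to all chromosomes. Of 269 region values past 2-fold, 39 fell under it in at least 1 alternative, none of them reversed. Groups hold 1 library each, so no library could be left out. No paired analysis was possible because each group has 1 library.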
